A study of Mus musculus with 24 samples.

Results

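Amino acids cross cell membranes through carrier proteins encoded by solute carrier (Slc) genes, and the 7 families Slc1, Slc3, Slc6, Slc7, Slc36, Slc38 and Slc43 hold most of the carriers of the cell surface and the lysosome. The genes described here were all protein-coding genes of the count table whose symbol in the GENCODE M1 annotation begins with one of these family names followed by the letter a and a digit. The rule found 63 genes among 37991 in the table, of which 22337 were protein-coding. By family there were 7 genes of Slc1, 2 of Slc3, 19 of Slc6, 16 of Slc7, 4 of Slc36, 12 of Slc38 and 3 of Slc43. The rule used names alone and no expression value. It also takes in a few genes that are not amino acid carriers, such as the monoamine carriers Slc6a2, Slc6a3 and Slc6a4 and the creatine carrier Slc6a8, as well as Slc7a6os, a separate gene on the opposite strand beside Slc7a6. Slc38a9 has 2 entries since the annotation gives that symbol to a pair of gene models.

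The families differ in what they move and in the force they use. Slc1 carriers bring in glutamate, or neutral amino acids such as glutamine, with sodium, and Slc38 and Slc6 carriers also draw on sodium. Several Slc7 proteins are light chains that reach the membrane only when joined to a heavy chain of the Slc3 family and that exchange one amino acid for another, so a cell can spend glutamine to gain leucine. Slc36 carriers move small amino acids with protons, and Slc43 proteins include facilitated carriers of large neutral amino acids. In the mammary gland such carriers feed milk protein synthesis in the epithelium, and leucine, arginine and glutamine taken up by them are read by the mTORC1 pathway.

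RNA was sequenced from mammary tissue of 24 female mice in 8 groups of 3. PyMT mice carried 1 copy of a transgene for the polyoma middle T oncoprotein, driven in mammary epithelium by the long terminal repeat of the mouse mammary tumor virus, and gave samples at week 6 (hyperplasia), week 8 (adenoma/MIN, mammary intraepithelial neoplasia), week 10 (early carcinoma) and week 12 (late carcinoma). FVB females of the same strain background and the same ages, without the transgene, gave normal mammary gland. The tissue was whole gland or tumor, the transgene acts in the epithelium only, and no other treatment or allele was given for either genotype. Replicates were separate mice.

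Total counts ran from 6969375 to 13516601 per sample. In 13 libraries (6 from PyMT mice, 7 from FVB mice) the histogram of low gene counts peaked at a value between 8 and 25 counts. They include all 3 PyMT samples of week 6 and all 3 FVB samples of week 10. A low gene in them is seen at 0 or in steps. The genotypes were compared without those libraries only in the fit over all weeks described below, since weeks 6 and 10 would then lack a genotype. Markers of other tissues moved with genotype. The 8 adipocyte markers summed to 1014 to 15457 normalized counts per PyMT sample against 46492 to 129895 per FVB sample, with 8 of 8 lower over all weeks by the test used below. Luminal epithelial markers summed to 21161 to 40310 in PyMT and 4341 to 19108 in FVB with 7 of 8 higher, while 5 of 5 endothelial, 5 of 5 fibroblast and 5 of 5 brown fat markers were lower. Of 6 myoepithelial markers 3 were lower, with sums of 980 to 5284 in PyMT and 2995 to 9620 in FVB samples, and of 5 macrophage markers 2 were lower at week 10, while the list had a median of 0.068 on the log2 scale over all weeks. The 10 skeletal muscle markers, all lower over the weeks, ranged from 0 to 32276 in PyMT and from 81.9 to 572731 in FVB, with Acta1, Ckm and the others high in single samples of both genotypes. In such bulk samples fewer cells of a type and less RNA per cell cannot be told apart, and the part of cell composition in the differences below was not tested.

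By the rule below, Slc7a5 was called higher in PyMT samples at all 4 weeks. Another 6 members, Slc1a3, Slc1a5, Slc7a2, Slc7a10, Slc36a2 and Slc43a1, were called lower at all 4. The share of all genes called at all 4 weeks was not worked out. Slc38a3 also lay above, and Slc6a6, Slc6a13 and Slc38a4 below, without overlap at each of the 4 weeks, but were not called at every week. Of the 63 members 40 passed the filter on low counts, a CPM (a count scaled to the total of its library) that reached 1 in 12 or more samples, and were tested among 14918 genes by the quasi-likelihood test of edgeR, with p-values adjusted by the Benjamini-Hochberg method. A gene was called when its adjusted p was under 0.05 and its log2 fold change was beyond 1 in either direction, here always PyMT against FVB. At week 6, 2 members were higher and 6 lower, together 20% of those tested. Of all genes 3.58% were higher and 6.46% lower, together 10.0%. At week 8, 4 were higher and 8 lower, 30% of those tested, beside 3.57% and 6.37% of all genes, together 9.95%. At week 10, 2 were higher and 8 lower (25%), beside 4.83% and 9.09%, together 13.9%. At week 12, 5 were higher and 11 lower (40%), beside 7.75% and 13%, together 20.7%. With scaling by library size only, the members at week 8 were 6 higher and 7 lower, beside 830 and 745 of all genes in place of 533 and 951. At week 12 they were 7 higher and 9 lower, beside 2054 and 1527 of all genes in place of 1156 and 1936, so the balance of all genes turned with that scaling. Both directions were present at each week. Their median log2 fold change stayed near that of all genes, at -0.24 beside -0.08 at week 6 and at 0.09 beside -0.00046 at week 12. PyMT and FVB samples of a week did not overlap in 36.6% of all tested genes at week 6. At weeks 8, 10 and 12 it was 40.2%, 40.5% and 46.7%. Of the 40 tested members 11 lay above and 14 below without overlap at week 6. At week 8 it was 10 and 12, and at weeks 10 and 12 it was 7 and 13 each.

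A single fit of 12 PyMT against 12 FVB samples with week as a covariate, which reuses the samples of the weekly fits, called 7 members higher and 10 lower, 42.5% of those tested, beside 8.51% and 17.2% of all genes, together 25.7%. The 7 were Slc1a1, Slc1a2, Slc6a14, Slc7a4, Slc7a5, Slc38a1 and Slc38a3. The 10 were the 6 called lower at every week together with Slc6a6, Slc6a13, Slc38a4 and Slc43a3. Slc7a6 was called lower at week 12 only, and 22 tested members were called in none of the 5 fits. The share of all genes called in none of them was not worked out. By family, 4 of the 5 tested Slc1 members, 3 of 7 in Slc6, 4 of 11 in Slc7, 1 of 3 in Slc36, 3 of 9 in Slc38 and 2 of 3 in Slc43 were called in the fit over all weeks, and neither of the 2 Slc3 heavy chains was. The members counted as lower include those with the highest levels in normal gland, as the plot of fold changes by family and the levels below show.

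**Figure D1:**
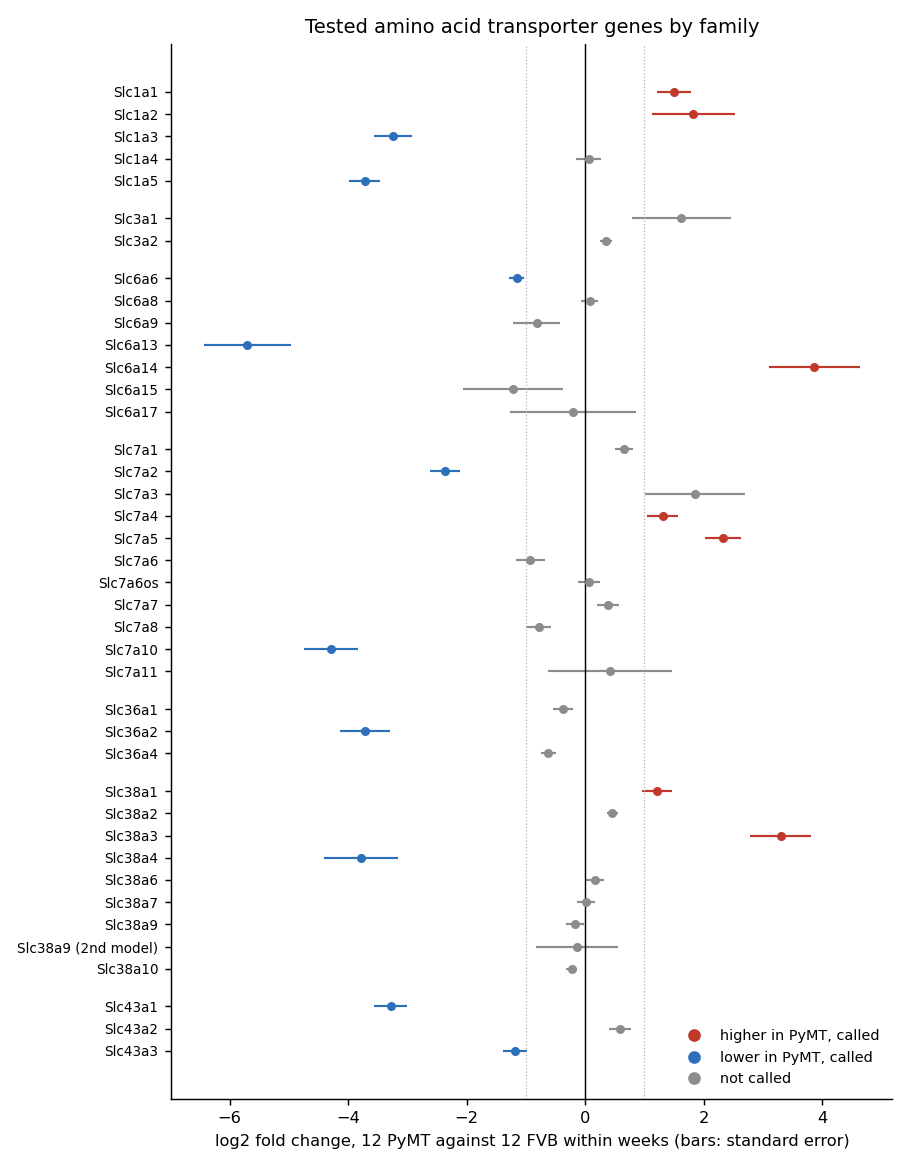
Log2 fold change of each of the 40 tested members, 12 PyMT against 12 FVB samples within weeks, with its standard error as a bar and members grouped by family; dotted lines mark the fold limit of 1 on the log2 scale. The 7 called higher (red) and the 10 called lower (blue) come from 6 of the 7 families, and the Slc3 pair stays grey.

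Slc7a5 (ENSMUSG00000040010, chr8:124405052-124431594 on mm9, minus strand) encodes LAT1, the light chain that exchanges leucine and other large neutral amino acids. In PyMT samples its normalized counts were 1981, 1607 and 2414 at week 6, then 1297, 1376 and 1590.4 at week 8, then 1729.6, 1217 and 1186 at week 10, and then 795, 746 and 1161 at week 12. The FVB samples had 154, 428 and 521 at week 6, then 44.2, 281 and 415 at week 8, then 459, 276 and 53.2 at week 10, and then 147, 386 and 190.3 at week 12. Every PyMT sample was above every FVB sample, and the highest value was that of a week 6 PyMT sample. The log2 fold changes were 2.44 ± 0.41 at week 6, then 2.54 ± 0.65 at week 8, then 2.42 ± 0.64 at week 10 and then 1.95 ± 0.37 at week 12 (SE, 3 mice per group). The adjusted p-values of edgeR's test were 0.00867, 0.0449, 0.0385 and 0.00607 in that order, and over all weeks the log2 fold change was 2.33 ± 0.30 with an adjusted p of 6.26e-07. The lowest FVB values, 44.2 in replicate 1 of week 8 and 53.2 in replicate 3 of week 10, came from the samples that also had the 2 lowest sums of luminal markers, 4976 and 4341. Both libraries had a peak in their low counts, at 18 and 19 counts, and their raw Slc7a5 counts were 35 and 34. They also had more genes at 0, among those with a median CPM of 10 to 30, than any other FVB library (1.92% and 4.40%). At weeks 8 and 10 the call was lost when any of 4 single samples was left out, with log2 fold changes that stayed at 1.95 or above.

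Slc3a2 encodes the heavy chain, CD98, that LAT1 and 5 other light chains of the Slc7 family need at the membrane. Its normalized counts ranged from 972 to 1612 in PyMT samples and from 777 to 1329 in FVB samples, which overlap. The log2 fold change over all weeks was 0.35 ± 0.10 (adjusted p = 0.00375, edgeR), which passed the p threshold and not the fold limit, and it was called at no single week. Slc3a1, the other heavy chain, which pairs with the cystine carrier of kidney and gut, had a log2 fold change of 1.62 ± 0.83 over all weeks (adjusted p = 0.108), and 26.4% of its exon bases overlap the opposite-strand gene Prepl.

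Slc7a10 (ENSMUSG00000030495, chr7:35971404-35989917 on mm9, plus strand) encodes Asc-1, a Slc3a2-linked exchanger of alanine, serine and cysteine that is known from brain and white fat. The PyMT samples had 41.0, 173 and 157 at week 6, then 72.5, 0.938 and 68.2 at week 8, then 25.8, 28.3 and 35.0 at week 10, and then 49.3, 40.6 and 16.6 at week 12 normalized counts. Those of FVB mice were 738, 322 and 659.9 at week 6, then 1018, 837 and 1019 at week 8, then 816, 1573 and 1776 at week 10, and then 1425, 765 and 1663 at week 12. No PyMT sample reached the lowest FVB sample, and from week 8 on the highest PyMT value was 72.5. The log2 fold changes were -2.22 ± 0.54 at week 6, then -4.29 ± 0.92 at week 8, then -5.48 ± 0.36 at week 10 and then -5.14 ± 0.45 at week 12, with adjusted p-values of 0.0346, 0.0249, 0.000152 and 0.000296. Lrp3, which shares 726 exon bases with Slc7a10 on the other strand (29.5% of the length of Slc7a10), was also lower over all weeks, with a log2 fold change of -3.18. The strand setting of the counting is not given in the sources used here, so reads of the shared stretch cannot be told apart.

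Set against each other per kilobase of exon, the 6 light chains of Slc3a2 (Slc7a5, Slc7a6, Slc7a7, Slc7a8, Slc7a10 and Slc7a11) had different leading members in the 2 genotypes. Slc7a5 made up 13.2% ± 9.28 (SD, n = 12) of their summed level per kilobase in FVB and 69.9% ± 7.47 (SD, n = 12) in PyMT samples, with ranges of 1.55 to 28.3% and 58.8 to 81.0%. Slc7a10 made up 60.5% ± 13.3 in FVB and 4.01% ± 2.86 in PyMT samples. No sample of one genotype entered the range of the other for either share. The summed light chain level was 1.93 ± 0.538 times that of Slc3a2 in FVB and 1.29 ± 0.32 times in PyMT samples, and these ranges overlap. The shares are ratios of RNA levels and say nothing of protein complexes.

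The other light chains changed less. Slc7a8, which encodes LAT2, passed the p threshold over all weeks and not the fold limit, at -0.78 ± 0.21 (adjusted p = 0.00334). Slc7a6, the y+LAT2 exchanger of arginine for neutral amino acids, was called lower at week 12, with 37.0, 116 and 97.0 normalized counts in PyMT against 285, 147 and 319 in FVB samples. That is a log2 fold change of -1.53 ± 0.48 (adjusted p = 0.0447), and 7 of 14 alternative settings lost the call. Slc7a7, the y+LAT1 exchanger of macrophages and gut, had 0.39 ± 0.18 over all weeks (adjusted p = 0.0786). The cystine carrier gene Slc7a11 was low, from 0 to 94.3 normalized counts in PyMT and from 0 to 37.8 in FVB samples.

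Slc7a2 (ENSMUSG00000031596, chr8:41947750-42007662 on mm9, plus strand) belongs to the other branch of the family, the cationic amino acid transporters, which work without a heavy chain and bring in arginine, lysine and ornithine. Its PyMT samples held 497, 528 and 647 at week 6, then 288, 178 and 403 at week 8, then 262, 259.9 and 367 at week 10, and then 593, 506 and 162 at week 12 normalized counts. Normal glands held 3477, 1786 and 1082 at week 6, then 1582, 1158 and 1301 at week 8, then 641, 2084 and 1621 at week 10, and then 2477, 5762 and 2643 at week 12. The groups did not overlap within any week, with the nearest pair at week 10, 641 in FVB against 367 in PyMT. The log2 fold changes were -1.93 ± 0.40 at week 6, then -2.19 ± 0.33 at week 8, then -2.23 ± 0.41 at week 10 and then -3.07 ± 0.52 at week 12, and the adjusted p-values lay between 0.00386 and 0.0188. Slc7a1, the widely expressed carrier of the same branch, had a positive log2 fold change over all weeks, 0.66 ± 0.15 (adjusted p = 0.000809), inside the fold limit. Slc7a4, an orphan relative of this branch, was called higher at week 12 (1.34 ± 0.34, adjusted p = 0.0205), as well as over all weeks (1.31 ± 0.26). The week 12 samples had 160, 114 and 180 normalized counts in PyMT and 60.5, 64.3 and 61.2 in FVB mice, without overlap, while P2rx6, which covers 13.9% of the exon bases of Slc7a4 from the other strand, was lower at that week (-3.14).

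**Figure D2:**
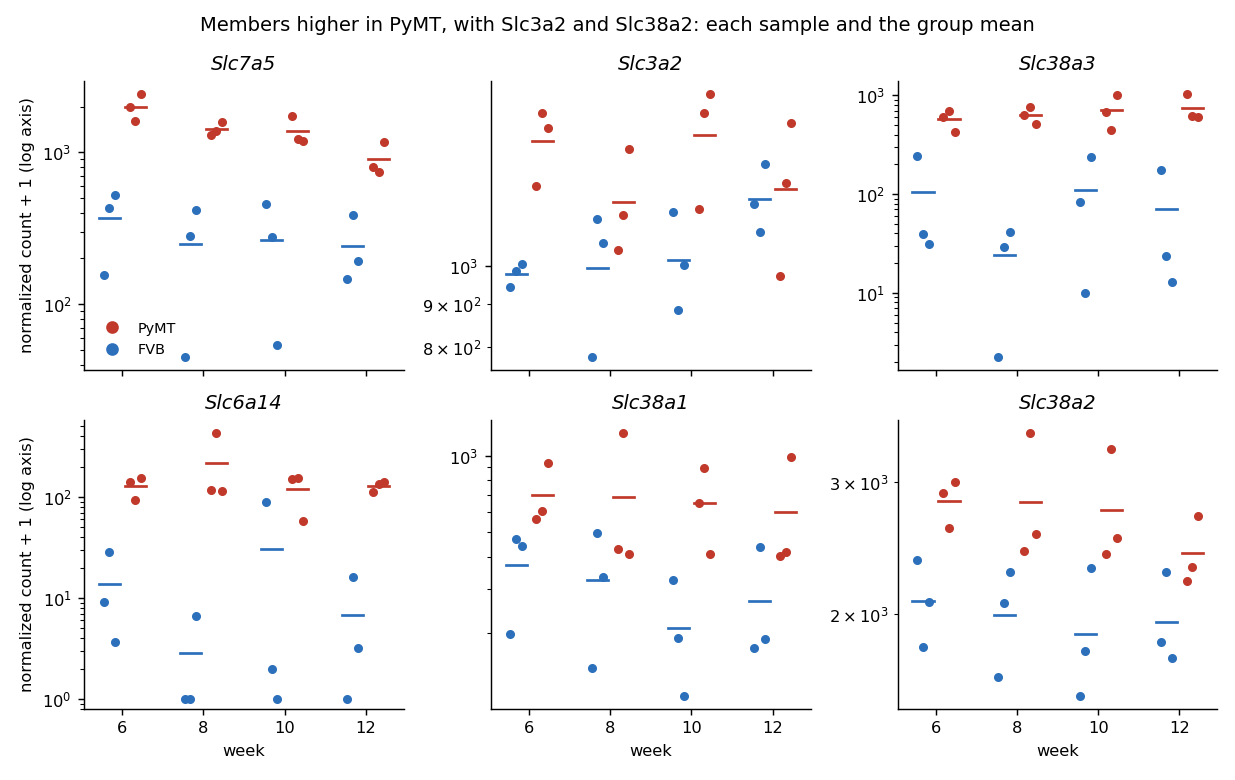
Normalized count plus 1 of 4 members called higher and of Slc3a2 and Slc38a2 in each sample, on log axes, against week; points are mice, lines group means, red PyMT and blue FVB. Slc7a5 is separated at each week, Slc3a2 and Slc38a2, on narrower axes, differ less, and Slc6a14 of FVB runs from 0 to 88.4.

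Upstream sequences are shown for 3 members of different behaviour. Slc7a10 fell the furthest among the members called at all 4 weeks, and Slc7a11 holds the motif searched for. Slc6a14, which passed the filter through its PyMT samples, had the largest increase over all weeks. RefSeq windows on GRCm38.p6, from 250 bases before to 50 after each annotated start, matched 44 of the 62 member symbols. They were searched on both strands for TGATGNAA, the 8-letter form of the amino acid response element that ATF4 binds with a C/EBP partner. The motif was in 4 of 65 member windows (6.15%), in those of Slc1a4, Slc7a7 and Slc7a11, and in 3.97% of all 32851 windows. Below, the 250 upstream bases are printed 5′ to 3′ on the gene's own strand with matches in capitals. The windows lie at chr3:50443614-50443863 (minus strand), chr7:35186135-35186384 (plus strand) and chrX:21714650-21714899 (plus strand), a later build than the mm9 positions given for the counts. Slc7a11 has one match on each strand, which begin 66 and 47 bases before its start, and the other pair has none in these windows.
Slc7a11: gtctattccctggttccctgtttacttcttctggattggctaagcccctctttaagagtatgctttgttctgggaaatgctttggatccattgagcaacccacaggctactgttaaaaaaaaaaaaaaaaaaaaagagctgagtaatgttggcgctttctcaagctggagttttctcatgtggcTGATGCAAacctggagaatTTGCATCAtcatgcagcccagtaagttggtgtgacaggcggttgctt
Slc7a10: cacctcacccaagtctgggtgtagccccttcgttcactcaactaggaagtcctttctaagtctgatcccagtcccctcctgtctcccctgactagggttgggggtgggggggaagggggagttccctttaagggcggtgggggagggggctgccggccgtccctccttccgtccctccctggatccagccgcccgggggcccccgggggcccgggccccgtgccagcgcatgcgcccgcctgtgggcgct
Slc6a14: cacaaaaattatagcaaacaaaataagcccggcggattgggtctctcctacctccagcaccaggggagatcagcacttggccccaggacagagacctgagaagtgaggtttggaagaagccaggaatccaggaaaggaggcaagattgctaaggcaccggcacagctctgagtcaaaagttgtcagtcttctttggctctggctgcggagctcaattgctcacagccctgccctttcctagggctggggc

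Among the members with no window in the table were Slc1a5, Slc6a2, Slc6a6, Slc6a7, Slc6a8, Slc6a15, Slc6a18, Slc7a2, Slc7a3, Slc7a4, Slc7a5, Slc7a12, Slc7a13, Slc36a2, Slc38a1, Slc38a3 and Slc43a3. None of the 3 members with a match was called at any week. Slc1a4 had a log2 fold change over all weeks of 0.06 ± 0.21 (adjusted p = 0.823), and Slc7a11 one of 0.43 ± 1.04 (adjusted p = 0.76). A match is a description of letters and not a bound site.

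Slc1a5 (ENSMUSG00000001918, chr7:17366695-17383623 on mm9, plus strand) encodes ASCT2, the sodium-linked exchanger that brings glutamine into many cells, and it was the member with the highest level per kilobase of exon over all samples. Its normalized counts in PyMT samples were 543, 892 and 1287 at week 6, then 724, 155 and 561 at week 8, then 334, 397 and 377 at week 10, and then 628, 393 and 463 at week 12. FVB samples had 6103, 4309 and 5719 at week 6, then 11614, 5194 and 6231 at week 8, then 7842, 8589 and 7325 at week 10, and then 8435, 5291 and 8931 at week 12. The highest PyMT sample, 1287, stayed below the lowest FVB sample, 4309. The log2 fold changes were -2.57 ± 0.34 at week 6, then -3.97 ± 0.62 at week 8, then -4.37 ± 0.21 at week 10 and then -3.89 ± 0.29 at week 12, with adjusted p-values of 0.00343, 0.00947, 6.98e-05 and 0.000192. The call held under all alternatives at all 4 weeks. The glutamine exchanger ASCT2 and the leucine exchanger LAT1 moved in opposite directions in the same samples.

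Slc1a3, the glutamate carrier GLAST, also fell at each week. PyMT samples held 179.8, 265 and 381 at week 6, then 222, 33.8 and 128 at week 8, then 77.4, 102 and 98.9 at week 10, and then 351, 213 and 109 at week 12 normalized counts. In FVB mice there were 1325, 1057 and 833 at week 6, then 2206, 1499 and 1011 at week 8, then 1604, 2754 and 2437 at week 10, and then 1660.0, 1918 and 1467 at week 12. The groups were apart at every week. Log2 fold changes were -1.96 ± 0.32 at week 6, then -3.59 ± 0.64 at week 8, then -4.56 ± 0.27 at week 10 and then -2.87 ± 0.38 at week 12, with adjusted p-values from 0.000103 to 0.0145. Another glutamate carrier of the family, Slc1a1 (EAAC1), rose. Its PyMT samples had 317, 79.3 and 267 at week 6, then 200.3, 132 and 251 at week 8, then 218, 123 and 184 at week 10, and then 221, 231 and 192 at week 12. The FVB samples had 47.5, 38.6 and 100.4 at week 6, then 49.2, 23.3 and 70.1 at week 8, then 65.4, 176 and 142 at week 10, and then 39.0, 70.6 and 103 at week 12. Slc1a1 was called at week 8 (2.05 ± 0.53, adjusted p = 0.046), then at week 12 (1.64 ± 0.38, adjusted p = 0.015), where the genotypes did not overlap, and not at weeks 6 and 10, where they did. Slc1a2 (GLT-1) was called higher over all weeks only (1.83 ± 0.70, adjusted p = 0.0312), with group means of at most 64.8 normalized counts. It reached 1 CPM in 12 PyMT and 7 FVB samples, so the PyMT samples alone met the filter. It lost the call when the 13 libraries with a peak in their low counts were left out. That smaller fit compares the genotypes within weeks 8 and 12 only, since weeks 6 and 10 then lack a genotype. Slc1a4, ASCT1, was called nowhere.

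**Figure D3:**
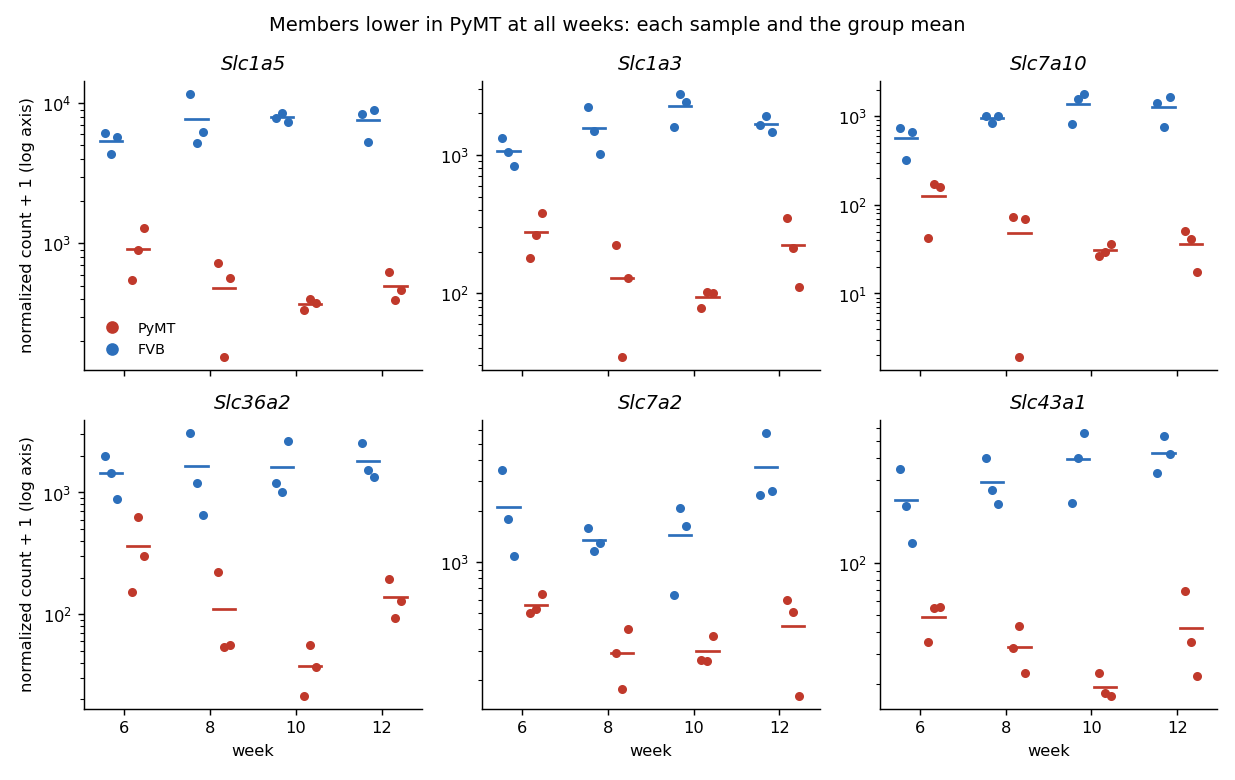
Normalized count plus 1 of the 6 members called lower at all 4 weeks, in each sample, on log axes, against week; points are mice, lines group means, red PyMT and blue FVB. PyMT samples lie below FVB samples of the same week in each panel, with Slc1a5 at 1287 or below in every PyMT sample and at 4309 or above in every FVB sample.

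In the Slc38 family of sodium-linked neutral amino acid carriers, Slc38a3 (SNAT3), a carrier of glutamine, asparagine and histidine, had the largest increase. PyMT samples had 606, 687 and 424 at week 6, then 631, 756 and 505 at week 8, then 674, 449 and 995 at week 10, and then 1025, 621 and 606 at week 12 normalized counts. FVB samples had 241, 38.6 and 29.955 at week 6, then 1.26, 27.9 and 40.7 at week 8, then 82.7, 9.02 and 236 at week 10, and then 174, 22.7 and 12.0 at week 12. The PyMT samples were higher at each week without overlap, and the FVB samples spread from 1.26 to 241. The log2 fold change was 4.75 ± 0.77 at week 8 (adjusted p = 0.0107), later 3.50 ± 0.84 at week 12 (adjusted p = 0.0164). At weeks 6 and 10 it was 2.46 ± 0.75 and 2.78 ± 0.90, with adjusted p-values of 0.0716 and 0.0749. The highest FVB values, 241, 236 and 174, came from replicate 1 of week 6, replicate 3 of week 10 and replicate 1 of week 12, the 3 samples with the highest sums of skeletal muscle markers (541342, 572731 and 325888).

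Slc38a1 and Slc38a2 encode SNAT1 and SNAT2, net importers of glutamine and alanine. Slc38a1 was called at week 10 (1.68 ± 0.44, adjusted p = 0.0375), with 654, 898 and 409 normalized counts in PyMT and 323, 190 and 113 in FVB samples, and over all weeks (1.21 ± 0.26). Slc38a2 was the highest member per kilobase in PyMT samples, at 584 normalized counts per kilobase beside 427 in FVB. Its log2 fold change of 0.46 ± 0.09 over all weeks passed the p threshold (adjusted p = 0.000153) and not the fold limit. Slc38a4 (SNAT4), the next gene of this cluster on chromosome 15, was lower at week 12 (-4.80 ± 0.93, adjusted p = 0.00666), with 0, 13.9 and 2.77 normalized counts in PyMT and 184, 155 and 145 in FVB samples. Slc38a4 reached 1 CPM in 6 PyMT and 12 FVB samples, so the FVB samples alone met the filter. The 3 genes lie at chr15:96401849-96473344, chr15:96517825-96530129 and chr15:96825254-96886387 on mm9, so neighbours within 1 cluster were called in opposite directions. Slc38a10, among the 5 highest members per kilobase and a putative carrier, had -0.23 ± 0.09 over all weeks. Slc38a9, the lysosomal arginine sensor, had -0.17 ± 0.16 (adjusted p = 0.385) for its longer gene model and -0.14 ± 0.69 for the shorter one.

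Slc6a14 (ENSMUSG00000031089, chrX:21292022-21319481 on mm9, plus strand) encodes ATB0,+, which imports neutral and cationic amino acids with sodium and chloride. The PyMT samples held 139, 91.8 and 151 at week 6, then 116, 426 and 112 at week 8, then 151, 153 and 56.3 at week 10, and then 112, 135 and 139 at week 12 normalized counts. For FVB the values were 8.11, 27.8 and 2.64 at week 6, then 0, 0 and 5.65 at week 8, then 88.4, 1.0 and 0 at week 10, and then 0, 15.1 and 2.19 at week 12. At weeks 6, 8 and 12 the genotypes were apart, with log2 fold changes of 3.28 ± 0.87, 6.72 ± 1.21 and 4.50 ± 0.96 and adjusted p-values of 0.0459, 0.0145 and 0.0102. At week 10 the FVB sample at 88.4 lay above the PyMT sample at 56.3, and the gene was not called (2.00 ± 1.54, adjusted p = 0.443). The highest value, 426, was that of PyMT replicate 2 of week 8, the sample with the fewest adipocyte marker counts and the highest luminal marker sum, 40310. Its library had a peak in the low counts at 23. Of genes with a median CPM of 10 to 30, 2.87% were at 0 in it, the most of any PyMT sample. The week 6 call was lost in 6 of 14 alternatives. Slc6a14 reached 1 CPM in 12 PyMT and 3 FVB samples, so it passed the filter through the PyMT samples, where it is high.

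Slc6a6, the taurine carrier, was the most abundant tested member of its family. It had 553, 674 and 783 at week 6, then 942, 1191 and 1219 at week 8, then 818, 510.4 and 867 at week 10, and then 630.2, 931 and 630.2 at week 12 normalized counts in PyMT samples. The FVB counts were 1475, 1049 and 1253 at week 6, then 1982, 1597 and 1865 at week 8, then 2395, 1984 and 2114 at week 10, and then 2163, 2265 and 1767 at week 12. PyMT samples were lower without overlap at every week, and the gene was called at week 10 (-1.51 ± 0.25, adjusted p = 0.00554), then at week 12 (-1.45 ± 0.21, adjusted p = 0.00189). The earlier differences, -0.92 ± 0.21 at week 6 and -0.69 ± 0.19 at week 8, lay inside the fold limit. Slc6a13 (GAT2), a carrier of GABA and taurine, was near 0 in PyMT samples, with 0.89, 1.04 and 0 at week 6, then 3.82, 0 and 8.23 at week 8, then 0, 0 and 0.853 at week 10, and then 0, 6.41 and 0 at week 12. The FVB samples had 30.1, 4.63 and 70.5 at week 6, then 55.5, 98.9 and 199 at week 8, then 129, 181 and 129.9 at week 10, and then 53.8, 35.3 and 138 at week 12. It was lower at weeks 8, 10 and 12 (adjusted p = 0.0399, 0.00187 and 0.0233), and over all weeks its log2 fold change was -5.70 ± 0.73. It reached 1 CPM in 1 PyMT and 11 FVB samples, so it passed the filter through the FVB samples.

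Slc36a2 (PAT2) carries proline, glycine and alanine with protons and is known as a surface protein of brown and beige fat cells. Its PyMT samples had 151, 629 and 302 at week 6, then 222, 52.5 and 54.7 at week 8, then 20.5, 54.5 and 35.8 at week 10, and then 195, 93.0 and 127 at week 12 normalized counts. Its FVB samples had 1985, 1453 and 885 at week 6, then 3068, 1189.7 and 652 at week 8, then 1198, 1005 and 2648 at week 10, and then 2551, 1536 and 1328 at week 12. Within each week the genotypes were apart, the closest pair being 629 and 885 at week 6. Log2 fold changes were -2.02 ± 0.50 at week 6, then -3.89 ± 0.79 at week 8, then -5.40 ± 0.52 at week 10 and then -3.66 ± 0.35 at week 12, with adjusted p-values of 0.0361, 0.0206, 0.000613 and 0.000372. Its neighbour on chromosome 11, Slc36a1 (PAT1), a lysosomal carrier, had -0.38 ± 0.17 over all weeks (adjusted p = 0.0635), and Slc36a3 in the same cluster had no count in any sample. Slc36a4 passed the p threshold and not the fold limit, at -0.62 ± 0.13.

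Slc43a1 (LAT3), a facilitated carrier of leucine and other branched-chain amino acids, fell at each week. PyMT samples held 33.8, 54.2 and 55.0 at week 6, then 31.5, 42.2 and 22.4 at week 8, then 22.2, 16.8 and 16.2 at week 10, and then 67.9, 34.2 and 21.3 at week 12 normalized counts. FVB samples held 348, 212 and 129.5 at week 6, then 399.9, 261 and 217 at week 8, then 221, 403 and 557 at week 10, and then 328, 536 and 423 at week 12. The highest PyMT sample, 67.9, was below the lowest FVB sample, 130, and the log2 fold changes were -2.28 ± 0.48 at week 6, then -3.19 ± 0.42 at week 8, then -4.35 ± 0.46 at week 10 and then -3.34 ± 0.43 at week 12. The adjusted p-values ran from 0.000922 to 0.0205. Slc43a3, which carries purine bases and not amino acids, lies on the same stretch of chromosome 2. It had 136, 408 and 309 at week 6, then 226, 144 and 329 at week 8, then 165, 606 and 249 at week 10, and then 239, 173 and 407 at week 12 normalized counts in PyMT mice. FVB mice had 630.5, 454 and 606 at week 6, then 582, 705 and 505 at week 8, then 675, 995 and 560.2 at week 10, and then 791, 508 and 735 at week 12. Slc43a3 was called lower at week 8 (-1.33 ± 0.34, adjusted p = 0.0455), then at week 12 (-1.26 ± 0.33, adjusted p = 0.0235), while at week 10 a PyMT sample at 606 lay above the lowest FVB sample. Slc43a2 (LAT4) had 0.59 ± 0.19 over all weeks (adjusted p = 0.0101), inside the fold limit. The LAT3 and LAT1 genes, both for carriers of large neutral amino acids, moved in opposite directions.

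The make-up of transporter RNA separated the genotypes, and for the sum and the Slc1 and Slc38 shares no sample of one entered the range of the other. The summed level of all 63 members was 5792 ± 851 normalized counts per kilobase in FVB (SD, n = 12) and 3427 ± 292 in PyMT samples (SD, n = 12), with ranges of 4379 to 6965 and 2964 to 4090.0. Slc1a5 alone held 29.3% ± 5.21 of it in FVB and 3.87% ± 1.73 in PyMT samples. Slc36a2 and Slc7a10 held 8.43% ± 3.13 and 7.15% ± 2.41 in FVB and 1.4% ± 1.37 and 0.672% ± 0.546 in PyMT samples. The leading members in PyMT samples were Slc38a2 with 17.1% ± 2.22, Slc3a2 with 13.0% ± 1.84 and Slc7a5 with 11.7% ± 3.11, against 7.55% ± 1.61, 6.25% ± 1.24 and 1.49% ± 0.992 in FVB. By family the Slc1 share was 33.4% ± 5.3 in FVB and 6.71% ± 2.19 in PyMT samples, and the Slc38 share 18.5% ± 3.36 and 38.5% ± 3.45. These shares are given as a description, with no test, and a share can rise because another member falls.

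**Figure D4:**
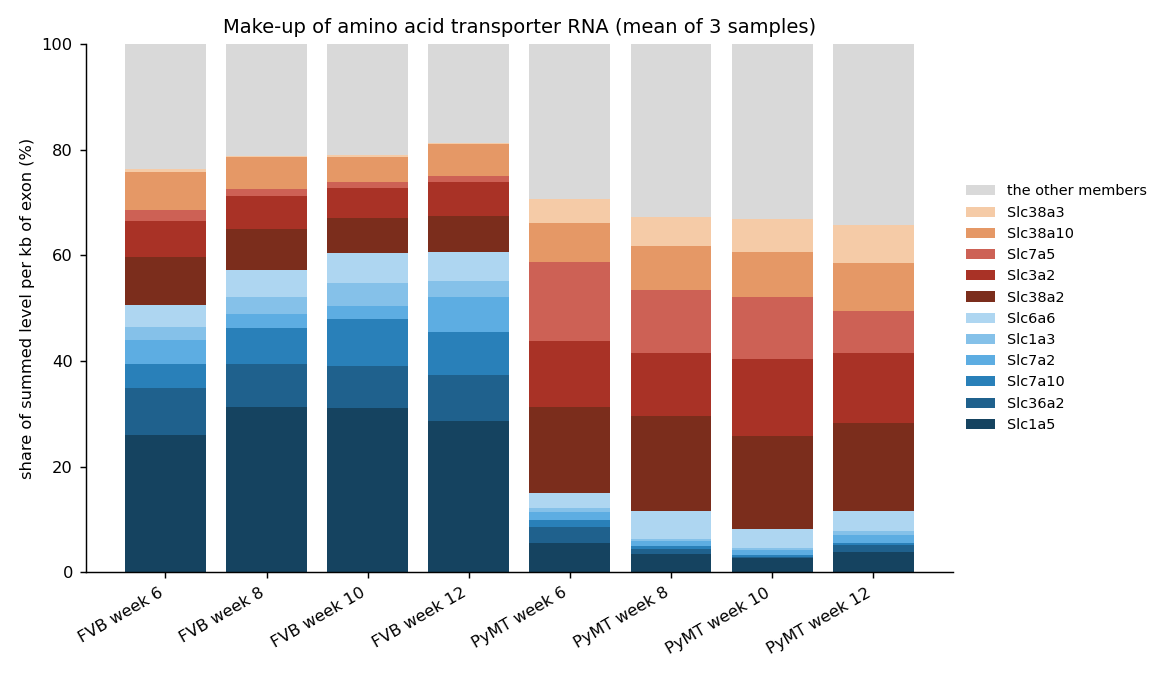
Share of the members' summed level per kilobase of exon held by 11 named members and by the others, as the mean of 3 samples in each group; FVB groups stand on the left and PyMT groups on the right. Among the 11 named members, Slc1a5 (darkest blue) has the largest share in each FVB group, and Slc38a2 (darkest red) has the largest in each PyMT group.

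The levels in normal gland and in tumor did not order the members alike. Per kilobase of exon over all samples the 5 highest were Slc1a5 with 926 normalized counts, Slc38a2 with 506, Slc3a2 with 401, Slc38a10 with 313 and Slc36a2 with 274. In FVB samples the order was led by Slc1a5 (1716 per kilobase), Slc36a2 (499), Slc38a2 (427) and Slc7a10 (427). In PyMT samples it was led by Slc38a2 (584 per kilobase), Slc3a2 (447), Slc7a5 (405) and Slc38a10 (286). Slc36a2, Slc38a2 and Slc7a10 overlap one another in their FVB samples, as do Slc38a2, Slc3a2 and Slc7a5 in their PyMT samples, where Slc7a5 also overlaps Slc38a10, so the order among them is not fixed by these data.

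Between hyperplasia and late carcinoma no member was called, in PyMT or in FVB mice. Fitting the 8 groups together, week 12 against week 6 called 0 of 40 members and 0% of all genes for each genotype. At an unadjusted p under 0.05 there were 9 members for PyMT and 1 for FVB, beside 1004 and 625 of all genes. DESeq2 called 1 member for PyMT, beside 75 of all genes higher and 22 lower. Limma's voom called 1 for FVB, beside 48 and 10 of all genes. Slc7a5 had a mean of 2001 normalized counts at week 6 and 900.4 at week 12 in PyMT mice, and Slc1a5 had 907 and 495, each lower at week 12 without a call. The change of the genotype difference itself was called for 0 of 40 members between weeks 6 and 12 (0% of all genes) and for 0 between weeks 8 and 10 (0.0067% of all genes, 1 gene), with 5 and 2 members at an unadjusted p under 0.05, beside 691 and 533 of all 14918 genes. Its smallest adjusted p among members was 0.923, for Slc7a11 and Slc7a10. For Slc7a10 the log2 fold change at week 12 minus that at week 6 was -2.93 ± 0.93. A p above the threshold with 3 mice per group does not show that the stages are alike.

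Some members that fell followed the adipocyte markers from sample to sample within a genotype. Only the 6 members called lower at all 4 weeks were compared, and only with the adipocyte sum. No other marker list was correlated with them, so whether the relation is particular to adipocyte markers was not tested. Pearson r was taken between log2 of the normalized count plus 1 and log2 of the summed markers plus 1. Across the 12 PyMT samples it was 0.941 for Slc1a5 (permutation p = 1e-05, adjusted over 12 relations 0.00012). Spearman rho was 0.944 (permutation p = 1e-05). That p is the smallest the 100000 resamples can give. Leaving out the 2 samples whose marker sum was farthest from the median on the log2 scale gave r = 0.872, and r was 0.949 and 0.936 in samples with and without a peak in their low counts. Across the 12 FVB samples r was 0.917 (permutation p = 0.00011, adjusted 0.00033) and rho 0.930 (permutation p = 4e-05), with 0.857 without the 2 farthest and 0.919 and 0.982 by kind of library. For Slc7a10 r was 0.918 in PyMT and 0.799 in FVB samples, and for Slc1a3 0.906 and 0.696. Slc7a2 had no such relation past the threshold in FVB samples (r = 0.153, permutation p = 0.638; rho = 0.238), nor did Slc36a2 pass the adjusted threshold there (r = 0.472, adjusted p = 0.145 by permutation). In PyMT samples Slc7a2 had r = 0.68 (adjusted p = 0.0197 by permutation), with 0.173 in the 6 samples without a peak in their low counts, and Slc36a2 had r = 0.782. A relation of Slc36a2 with the brown fat markers was not tested. FVB samples with Slc36a2 at 3068, 2648, 2551 and 1985 had the highest brown fat marker sums, 12925, 10308, 7742 and 7858. The FVB sample at 652 had the lowest sum, 162. Another at 1328 had a sum of 173, beside 1300 and 2543 in those at 885 and 1005. The PyMT sample at 629 had the highest PyMT sum, 5676. Slc43a1 passed the adjusted threshold in neither genotype, with r = 0.375 in PyMT and 0.603 in FVB samples (adjusted p = 0.251 and 0.0513 by permutation). The 4 weeks were pooled within a genotype, and these values stand beside the differences without a test of what sets them.

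**Figure D5:**
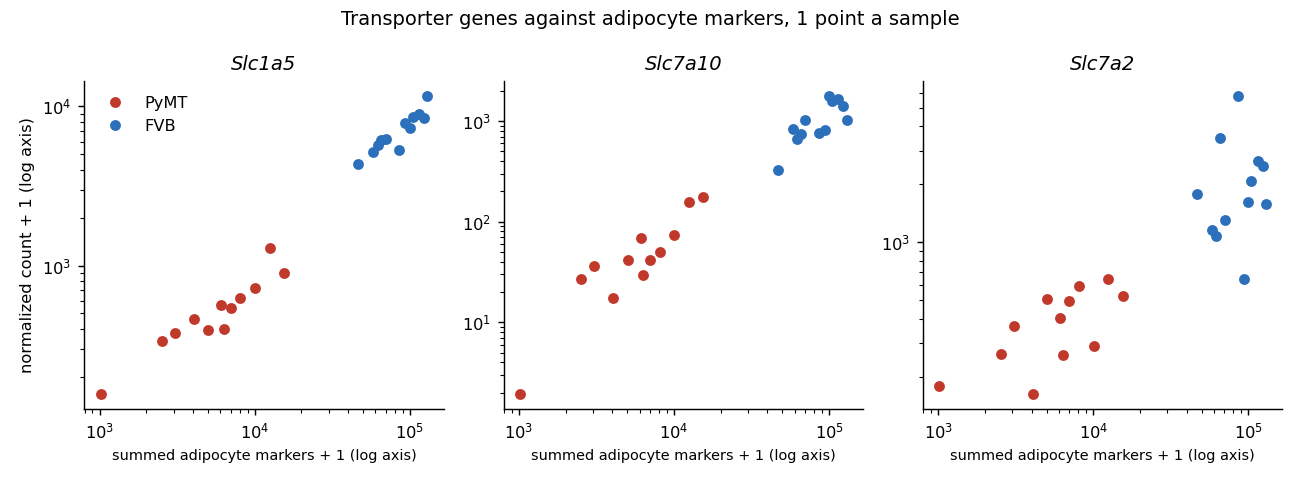
Normalized count plus 1 of Slc1a5, Slc7a10 and Slc7a2 against the summed adipocyte markers plus 1, on log axes, with 1 point per sample, red PyMT and blue FVB. Slc1a5 rises with the markers within both genotypes (r = 0.941 in PyMT and 0.917 in FVB), and Slc7a2 of FVB samples shows little slope (r = 0.153).

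The 4 lists of related genes were counted beside the carriers, and each count over all weeks is to be read against the 8.51% of all genes that were higher and the 17.2% that were lower. Among 14 tested of 21 other amino acid carriers, 2 were higher and 3 lower over all weeks. Slc16a10, the TAT1 carrier of aromatic amino acids, was lower at every week, from -1.98 at week 8 to -3.29 at week 10. The mitochondrial glutamate carrier gene Slc25a22 (-1.51 ± 0.22) and Slc25a44, a mitochondrial carrier of branched-chain amino acids (-1.26 ± 0.18), were lower, and the aspartate-glutamate carrier gene Slc25a13 (1.26 ± 0.37) and Slc25a29 (1.16 ± 0.26) were higher. The median log2 fold change of the list was 0.016 beside -0.027 for all genes.

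All 19 genes of the amino acid response list, targets and parts of the ATF4 pathway, were tested. At week 6, 3 were higher and none lower, beside 3.58% and 6.46% of all genes, namely Psat1 (1.68 ± 0.36) and Shmt2 (1.06 ± 0.25) of serine and glycine synthesis and the asparagine synthetase gene Asns (1.11 ± 0.24). At week 8, 2 were higher and 1 lower, beside 3.57% and 6.37% of all genes. It was 1 and 1 at week 10, beside 4.83% and 9.09%, and 1 and 2 at week 12, beside 7.75% and 13.0%. Over all weeks 2 were higher, Psat1 and Shmt2, and 3 were lower, Chac1, Atf5 and Eif4ebp1, with Eif4ebp1, an inhibitor of translation initiation, at -1.62 ± 0.20 (adjusted p = 2.26e-07). The list's median over all weeks was 0.22 beside -0.027 for all genes. At week 6 it was 0.33 beside -0.08, and at week 12 it was -0.11 beside -0.00046.

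Of 19 tested genes of lysosomal amino acid sensing and mTORC1, none was higher and 3 were lower over all weeks, Sesn1, a sestrin (-1.003 ± 0.13), the GTPase gene Rragd (-1.91 ± 0.69) and Gatsl3, which encodes the arginine sensor CASTOR1 (-3.11 ± 0.72). That share is below the 17.2% of all genes that were lower. Sesn3, another sestrin, was called higher at weeks 10 and 12. In glutamine and branched-chain metabolism 4 of 12 genes were lower over all weeks and none higher, with a median of -0.67 beside -0.027 for all genes. Glul, glutamine synthetase, fell at each week, with a log2 fold change of -2.32 at week 6 and -3.85 at week 12 (adjusted p = 0.0122 and 0.000325). The others were Bcat1 and Bcat2, the branched-chain aminotransferases (-2.09 ± 0.47 and -1.13 ± 0.19), and Bckdhb of the branched-chain dehydrogenase (-1.28 ± 0.21).

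The other 23 members did not pass the filter and were not tested. Slc6a5, Slc6a11, Slc7a12, Slc7a15, Slc36a3 and Slc38a8 had a count of 0 in all 24 samples. In libraries without a peak in their low counts a 0 allows up to 3 counts per sample. In the 13 libraries with such a peak, at 8 to 25 counts, a 0 allows more, and that limit was not worked out. For others the highest raw count in any sample was 130 for Slc6a2, 51 for Slc6a12, 39 for Slc6a4, 37 for Slc1a7, 33 for Slc38a5, 30 for Slc38a11, 27 for Slc6a19 and 20 for Slc6a7. It was 19 for Slc6a20a, 15 for Slc7a13, 13 for Slc6a3 and Slc6a18, 9 for Slc7a14, 4 for Slc6a20b, 3 for Slc7a9 and 1 for Slc1a6. Slc6a2 encodes the noradrenaline carrier, Slc6a4 the serotonin carrier and Slc6a19 the neutral amino acid carrier of gut and kidney. Among the larger families, 11 of 16 members of Slc7 and 9 of 12 of Slc38 were tested, against 7 of 19 of Slc6.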

How the data were processed

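RNA of mammary tissue from 24 mice was deposited as raw gene counts, which the authors made by trimming adapters, aligning reads to mm9 with GSNAP and counting reads per gene with HTSeq. The annotation and strand setting of the counting are not given in the sources used here. Libraries were directional and depleted of ribosomal RNA. Symbols, biotypes, exon lengths and mm9 positions came from GENCODE M1. Groups were taken from the sample labels by genotype and week. Duplicate libraries were checked for with a mean chi-square over genes for each pair of replicates, with values of 20.4 to 238.

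The 14918 genes that reached 1 CPM in 12 or more samples were tested in R 4.3.3 with edgeR 4.0.16 after TMM scaling, by the quasi-likelihood test with Benjamini-Hochberg adjustment over all tested genes. A call needed both an adjusted p below 0.05 and a fold change above 2 (log2 beyond 1 either way), and for a change of the difference between weeks the adjusted p alone. Standard errors were derived from the log2 fold change and its F statistic. Normalized counts are counts over the size factors of DESeq2 1.42.0. Levels per kilobase divide them by exon length. Alternatives used DESeq2, limma 3.58.1, other scalings, no filter, a replicate block, counts divided by the packet size (the peak in low counts), and samples left out. Pearson correlations were taken on log2 of each value plus 1. Correlations used two-sided permutation tests with 100000 resamples (NumPy 2.4.6, SciPy 1.17.1). The fits were tested on simulated data. The p-values of the weekly fits and of the fit of 8 groups cover the spread between the 3 mice of a group. In the fit over all weeks the spread also holds any change of the genotype difference between weeks. The permutation p-values treat the 12 samples of a genotype as exchangeable across the 4 weeks.

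The members and the gene lists were chosen with earlier results of these data known. Every member called at any week or over all weeks is named, as are the 5 highest per kilobase. Values in each sample are given for members called at 2 or more weeks, and untested members are given by their highest count. Slc3a2, Slc38a2, Slc7a11 and the other uncalled members named for comparison were chosen after their values were seen. Limits on a count of 0 use 3 counts, cover counting error only and hold for libraries without a peak in their low counts. The values of 1 member are not reported here.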

Additional observations from a re-analysis of the deposited data

Results flagged for a closer look

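Slc6a17 and Slc7a11 each had 1 week in which every PyMT sample lay below every FVB sample and another in which every PyMT sample lay above, and for neither was a difference between those weeks tested as such beyond the week 12 against week 6 and week 10 against week 8 contrasts, which called no member. All 3 PyMT samples of week 6 had 0 counts for both genes, against 12.7, 26.2 and 18.5 normalized counts of Slc6a17 and 8.11, 37.8 and 7.93 of Slc7a11 in FVB samples. At week 8 the PyMT samples had 27.7, 23.4 and 28.8 for Slc6a17 and 23.9, 28.1 and 24.1 for Slc7a11, against at most 18.9 and 18.1 in FVB samples. All 3 PyMT libraries of week 6 had the peak in their low counts, at 13 to 25 counts.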

How the results depend on the processing

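At week 6 the number of members called moved from 8 to 15 by DESeq2's Wald test and to 5 with the replicate block, and it ran from 3 to 10 when single samples were left out. All genes called there moved alike, from 744 higher and 1485 lower by DESeq2 to 419 and 762 with the block, beside 534 and 964. With single samples left out, all genes called at week 6 ran from 323 to 582 higher and from 534 to 1024 lower. Members called ran from 5 to 10 around 12 at week 8. All genes there ran from 194 to 604 higher and from 319 to 910 lower, beside 533 and 951. At week 10 members ran from 7 to 11 around 10. All genes ran from 376 to 958 higher and from 886 to 1412 lower, beside 720 and 1356. At week 12 members ran from 12 to 18 around 16. All genes ran from 775 to 1342 higher and from 1414 to 2096 lower, beside 1156 and 1936. Without PyMT replicate 1 the member counts at weeks 6 and 8 were 3 and 7, and without PyMT replicate 3 they were 4 and 6. Without FVB replicate 1 of week 6 the member count was 5, and without FVB replicates 2 and 3 of week 8 it was 5 and 8. For week 12 against week 6 in PyMT mice DESeq2 called 1 member, and in FVB mice limma's voom called 1, beside 0. Of all genes these settings called 75 higher and 22 lower in PyMT mice and 48 and 10 in FVB mice. For Slc7a6 at week 6 the log2 fold change of -0.23 turned to 0.035 with library size only and ran from -0.80 to 0.19 when single samples were left out, above 0 without PyMT replicate 3, neither called. The cause was not tested.

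Over all weeks 16 to 22 members were called in the alternatives, 17 in the main setting, and 22 without the filter. All genes called ran from 1195 to 2050 higher and from 2002 to 3330 lower, beside 1269 and 2571 in the main setting. Scaling by library size only shifted the median log2 fold change of all genes to 0.19 at week 6 from -0.08. Over all weeks it called 8 members higher and 8 lower, beside 7 and 10, with 2050 and 2002 of all genes. Of 63 called values of named members, 37 were called in every alternative tried and none changed direction in 797 alternatives, of which 89 lost the call.

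Replicate numbers are shared between groups, but samples with the same number deviated together weakly (r from -0.025 to 0.177 over 12 pairs, 4 above 0.1) and 14 of 24 samples correlated best with their own number. Since not every pair was above 0.1 and no label ties the numbers to a shared litter or day, the numbers were not taken to pair the mice. With the replicate block the counts of members were 5, 11, 12 and 13 at weeks 6, 8, 10 and 12. They were 18 over all weeks and 0 in the contrasts between weeks. Of all genes 419, 475, 725 and 1076 were higher and 762, 889, 1288 and 1711 lower at those weeks. Over all weeks 1293 genes were higher and 2534 lower. In the contrasts between weeks 1 gene was called, for a change of the difference between weeks 8 and 10.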
